A study of Mus musculus with 8 samples.

Results

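Genes of red cell formation, heme synthesis and iron handling were examined in the spleens of 10-week-old B6D2F1J mice, which are F1 hybrids of C57BL/6 and DBA/2 mice, at day 14 of a parent-into-F1 lupus model. In this model lymphoid cells of a donor strain are put into an F1 recipient and react to it. There were 4 arrays of recipients given DBA cells and 4 of recipients given B10.D2 cells, and B10.D2 is not a parental strain of these recipients. No recipient without donor cells was analysed here, and the labels give neither the kind nor the number of cells transferred. The 47 genes were given as a list of symbols by their known roles, a list drawn up with earlier results of these data known, and 42 of them had at least 1 of 67 probes on the array, among 16593 genes with a probe. Hbb-b1, Ahsp, Slc25a37, Epb41 and Car1 had no probe under their symbols. A total of 36 of the 42 genes were tested, since at least 1 of their probes was detected on 4 or more of the 8 arrays, and 33 were detected on all 8. Bpgm, a red cell enzyme of the glycolytic path, Cd36, a scavenger receptor, Epb42, a membrane skeleton protein, and Ftl1, the light chain of ferritin, were detected on 0 arrays. Hpx, the plasma heme scavenger, was detected on B10.D2 replicate 2 and DBA replicate 3. Rhd, a carrier of the Rh blood group, was detected on B10.D2 replicate 4, DBA replicate 2 and DBA replicate 4.

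The mouse spleen makes red cells throughout adult life and raises this output under anemia or inflammation. Erythropoietin acting through its receptor, with Gata1, Tal1 and Klf1, drives progenitors to express globins, membrane proteins and the enzymes of heme synthesis, and the transferrin receptor supplies the iron. Macrophages of the red pulp take up old red cells, break down their heme and return the iron to plasma through ferroportin. In bulk RNA, fewer cells of a type and less RNA per cell cannot be told apart.

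The genes varied widely between arrays of the same donor group, and both groups showed it. Values are log2 normalized intensities. The median over the 36 tested genes was 9.74, 10.06, 10.20 and 10.81 on B10.D2 replicates 1 to 4, and 9.58, 10.76, 9.89 and 10.40 on DBA replicates 1 to 4. B10.D2 replicate 4 and DBA replicate 2 were thus the high arrays of their groups, and replicate 1 was the low array of each. The within-group standard deviation (SD, pooled over both groups) had a median of 0.45 over these genes, against 0.16 over all 9028 tested genes, which is 2.79 times as large. It was 0.44 against 0.16 in the B10.D2 group alone and 0.46 against 0.15 in the DBA group alone. A total of 27 of the 36 genes lay above 0.30, the 90th percentile of all tested genes, where the background is 10%.

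The same arrays stood high for most of the genes. B10.D2 replicate 4 gave the highest value of its group for 30 of 36 genes (27.7% of all tested genes) and DBA replicate 2 for 32 of 36 (26.7%). Both held for 30 of 36 genes (15.5%). At the low end, B10.D2 replicate 1 was lowest for 30 genes (23.9% of all) and DBA replicate 1 for 31 (23.5%). The median gene exceeded the mean of the other 3 arrays of its group by 0.78 on B10.D2 replicate 4 and by 0.80 on DBA replicate 2, while the medians over all tested genes were -0.03 and -0.04. The 6 genes outside the joint pattern were Hba-a1, Hbb-b2, Sptb, Slc40a1, Hmox1 and Slc4a1. These counts describe arrays that share their RNA across genes, so the genes are not independent replicates. Both high arrays were picked because an earlier look at these data had them high for erythroid genes. The counts on them were thus partly fixed in advance, and they are descriptions, not tests. Each gene was counted by its tested probe with the highest mean.

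**Figure D1:**
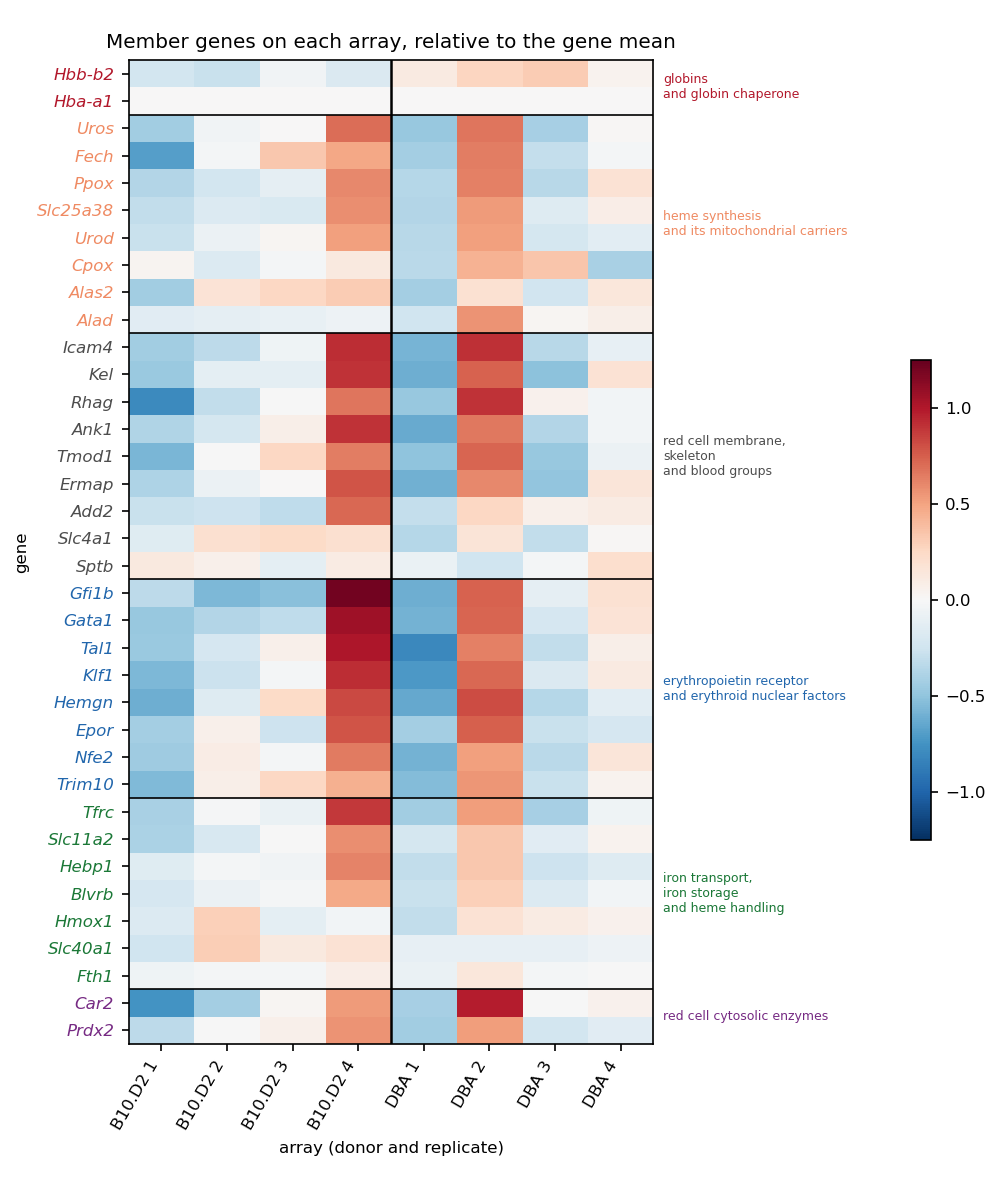
Each row is 1 tested gene and each column 1 array, coloured by the log2 value minus the gene's mean over all 8 arrays. B10.D2 replicate 4 and DBA replicate 2 are high in most rows, as counted in the text, and replicate 1 of each group is low.

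No gene of the set passed the test between donors. The limma fit over 12950 probes called 0 of 36 genes at an adjusted p under 0.05, where 9 probes of all (0.0695%) and 7 genes of all (0.0775%) were called. At an unadjusted p under 0.05 there was 1 of 36 genes, Hbb-b2, against 14.3% of all tested genes. The groups did not overlap for 1 of 36 genes, again Hbb-b2, against 8.45% of all. The difference, DBA donor minus B10.D2 donor, was positive for 13 genes, negative for 22 and 0 for Hba-a1, with a median of -0.08 (-0.02 over all tested genes) and a range of -0.24 to 0.37. The smallest adjusted p was 0.178 in the limma fit. With median scaling of the arrays in place of the quantile step, the median over all tested genes moved to -0.18 and that of the set to -0.20, with 7 genes positive and 29 negative. The probes called were then 27 higher and 598 lower, against 8 higher and 1 lower with the quantile step, and 0 genes of the set were among them. The sign of most differences rested on single arrays. Without B10.D2 replicate 4 the median difference was 0.09, with 30 genes positive and 5 negative. Without DBA replicate 2 it was -0.26, with 3 positive and 32 negative, and without DBA replicate 1 it was 0.04, with 25 positive and 10 negative. With both high arrays left out, a setting added after the data were seen, it was -0.08 with 12 positive and 23 negative. The median within-group SD was then 0.24, against 0.14 over all tested genes, and 0 genes were called.

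**Figure D2:**
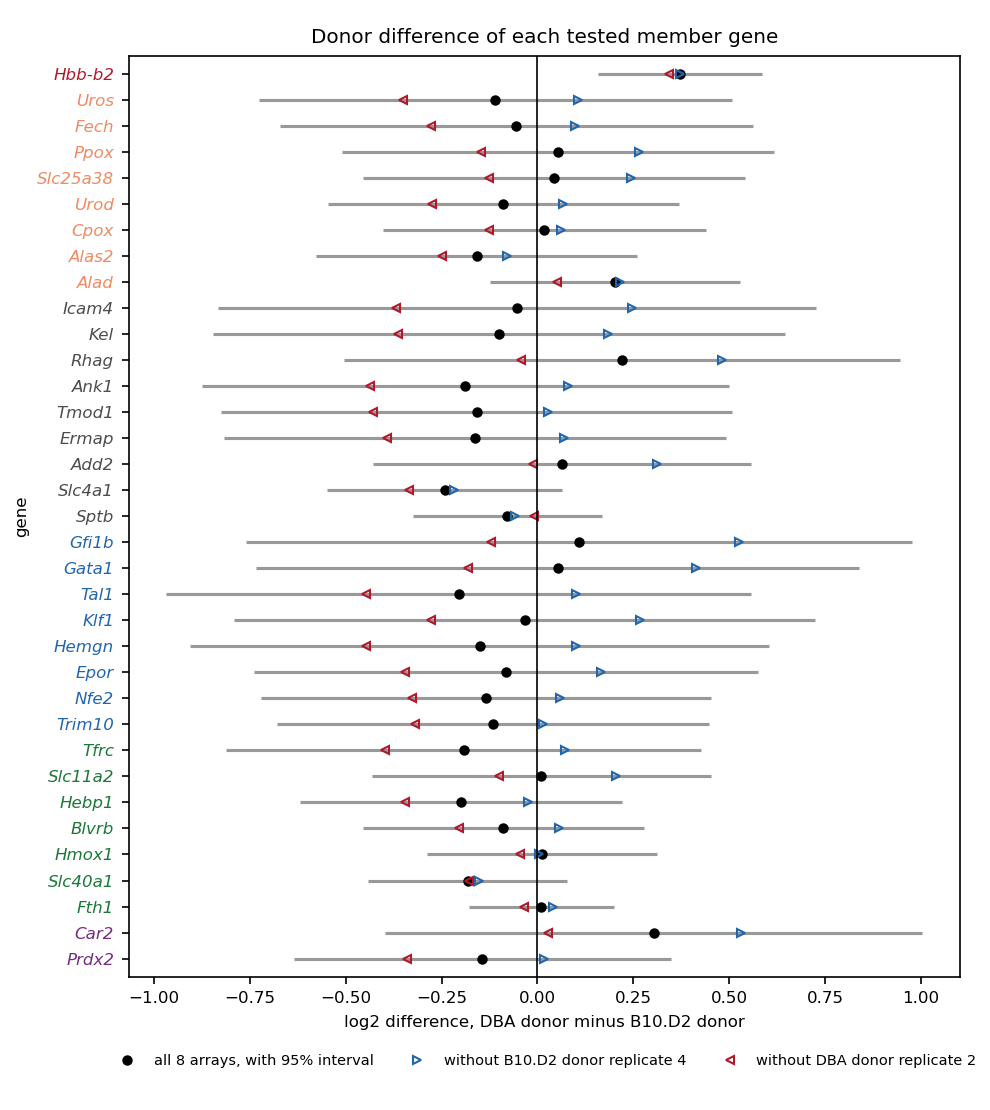
Log2 difference of each tested gene except Hba-a1, DBA donor minus B10.D2 donor, with its 95% interval from the limma fit over 8 arrays, and the same difference without B10.D2 replicate 4 or without DBA replicate 2. The interval of Hbb-b2 lies above 0, and for most genes leaving out either high array shifts the point across or away from 0.

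The erythropoietin receptor and the erythroid nuclear factors had the widest spread of the 6 role groups. All 8 were tested, all 8 were highest on B10.D2 replicate 4 and on DBA replicate 2 within their groups, and their median within-group SD was 0.62. Promoters of some of these and of some other genes of the set are shown because GATA1 and its partners bind GATA words in erythroid promoters. The sequences are the 250 bases before the start site of the RefSeq promoter table in GRCm38.p6, written 5′ to 3′ on the gene's own strand. For Kel that site lies inside the gene's outer edge in the RefSeq gene table, so the last few bases shown fall within the annotated gene, while for the other 4 genes the site is that edge. Capitals mark the word AGATAA and its variants with T as the first base, with G as the last base or with both, on either strand, so that TTATCT is the first form read from the other strand. The genes are Klf1 (chr8:84901732-84901981, plus strand), Gfi1b (chr2:28621983-28622232, minus strand), Kel (chr6:41704326-41704575, minus strand), Icam4 (chr9:21029182-21029431, plus strand) and, as the erythroid gene of heme synthesis, Alas2 (chrX:150547167-150547416, plus strand).
Klf1: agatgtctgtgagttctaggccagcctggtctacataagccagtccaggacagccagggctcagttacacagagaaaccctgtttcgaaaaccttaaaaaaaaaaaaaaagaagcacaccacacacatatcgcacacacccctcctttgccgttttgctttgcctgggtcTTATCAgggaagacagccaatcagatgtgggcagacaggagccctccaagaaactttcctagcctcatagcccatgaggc
Gfi1b: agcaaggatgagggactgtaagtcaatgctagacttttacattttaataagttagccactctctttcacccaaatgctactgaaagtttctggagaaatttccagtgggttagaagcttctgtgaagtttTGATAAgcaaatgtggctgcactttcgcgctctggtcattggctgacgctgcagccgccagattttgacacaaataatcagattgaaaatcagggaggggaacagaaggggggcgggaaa
Kel: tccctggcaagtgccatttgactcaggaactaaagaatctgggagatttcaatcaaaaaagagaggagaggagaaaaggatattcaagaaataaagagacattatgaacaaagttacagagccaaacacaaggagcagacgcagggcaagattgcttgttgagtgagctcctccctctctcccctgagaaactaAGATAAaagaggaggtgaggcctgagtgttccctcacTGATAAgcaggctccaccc
Icam4: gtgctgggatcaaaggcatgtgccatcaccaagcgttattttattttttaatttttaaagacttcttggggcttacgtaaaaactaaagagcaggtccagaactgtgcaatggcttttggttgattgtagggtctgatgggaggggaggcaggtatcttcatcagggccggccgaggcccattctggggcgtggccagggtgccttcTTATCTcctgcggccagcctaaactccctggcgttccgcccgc
Alas2: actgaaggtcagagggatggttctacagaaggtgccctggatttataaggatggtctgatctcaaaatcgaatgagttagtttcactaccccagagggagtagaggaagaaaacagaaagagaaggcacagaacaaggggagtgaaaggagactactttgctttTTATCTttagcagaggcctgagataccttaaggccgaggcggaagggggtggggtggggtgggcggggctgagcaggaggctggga
Kel had 2 such words and the other 4 genes 1 each. The genes shown are not typical of all widely varying genes of the set. Gata1, Tmod1 and Tfrc, with SDs of 0.65, 0.54 and 0.50, had no such word in their windows.

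A promoter window was found for 34 of the 47 genes. Such a GATA word stood in the 250 bases of 20 of the 34 (58.8%), against 29.7% of 27025 genes. The composite word of an E-box part and GATA (CTG, then 8 or 9 bases of any kind, then GATA), which can overlap the GATA words, stood in 9 of 34 (26.5%) against 4.64% of genes, Klf1, Gfi1b, Kel and Icam4 among them. The looser word CCNCNCCC, of the kind that Klf1 protein binds, stood in 22 of 34 (64.7%) against 48.5%, and CCACACCC in 0 of 34 against 3.68%. TGACNNNGC, the core of the element bound by Nrf2 and Bach1, stood in 4 of 34 (11.8%) against 11.5%. All words were searched on both strands. Among tested genes the median within-group SD was 0.53 for the 16 with a GATA word and 0.39 for the 11 without. The ranges overlapped, at 0 to 0.72 with the word and 0.08 to 0.65 without, where the 0 is that of Hba-a1. Genes highest on both B10.D2 replicate 4 and DBA replicate 2 were 15 of the 16 and 10 of the 11. These are descriptions of letters in a window and show no binding.

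Gfi1b, a repressor needed for red cell and platelet precursors, had the widest spread of the tested genes of the set, with an SD of 0.72. It read 8.42, 8.19, 8.23 and 9.96 on the 4 B10.D2 donor arrays and 8.15, 9.49, 8.64 and 8.94 on the 4 DBA donor arrays. B10.D2 replicate 4 was 3.20-fold above the mean of the other 3, DBA replicate 2 was 1.89-fold above its own, and the groups overlapped. The difference between donors was 0.11 (SE 0.39, limma adjusted p = 0.929).

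Gata1, the factor that switches on most red cell genes, read 5.89, 6.01, 6.05 and 7.42 on the B10.D2 donor arrays and 5.78, 7.09, 6.16 and 6.54 on the DBA donor arrays. Its value on B10.D2 replicate 4 lay above all others of both groups. The difference between donors was 0.05 (SE 0.35, limma adjusted p = 0.965). A second tested probe of Gata1 gave 0.25 (limma adjusted p = 0.655) with the same high arrays. Both Gata1 and Gfi1b turned negative, at -0.11 each, when arrays were scaled by their median in place of the quantile step, where all tested genes had a median of -0.18.

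Klf1, the activator of adult beta globin, read 9.81, 10.11, 10.35 and 11.29 on the B10.D2 donor arrays and 9.65, 11.09, 10.19 and 10.49 on the DBA donor arrays. The order of arrays matched that of the median over all 36 genes in each group. The group means were 10.39 ± 0.64 and 10.36 ± 0.60 (SD, n = 4), a difference of -0.03 with a 95% interval of -0.79 to 0.72 (limma adjusted p = 0.976). That interval is wide, so these arrays do not show that the donors were alike. Tal1, a partner of Gata1, read 9.26, 9.52, 9.80 and 10.74, then 8.92, 10.36, 9.42 and 9.80, with a difference of -0.20 (SE 0.34). Nfe2, a factor for globin expression, read 10.05, 10.59, 10.48 and 11.14 on the B10.D2 donor arrays and 9.90, 11.01, 10.16 and 10.64 on the DBA donor arrays. The same arrays were high in each group, and the difference was -0.13 (SE 0.26, limma adjusted p = 0.859).

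Epor, the erythropoietin receptor, read 7.38, 7.87, 7.55 and 8.59 on the B10.D2 donor arrays and 7.38, 8.55, 7.53 and 7.60 on the DBA donor arrays. In each group 1 array stood about 1 log2 unit above the mean of the rest, by 0.99 and 1.05. The difference between donors was -0.08 (SE 0.30, limma adjusted p = 0.928). Hemgn, an erythroid nuclear protein, and Trim10, a protein of terminal red cell maturation, had SDs of 0.62 and 0.45 and the same high arrays.

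**Figure D3:**
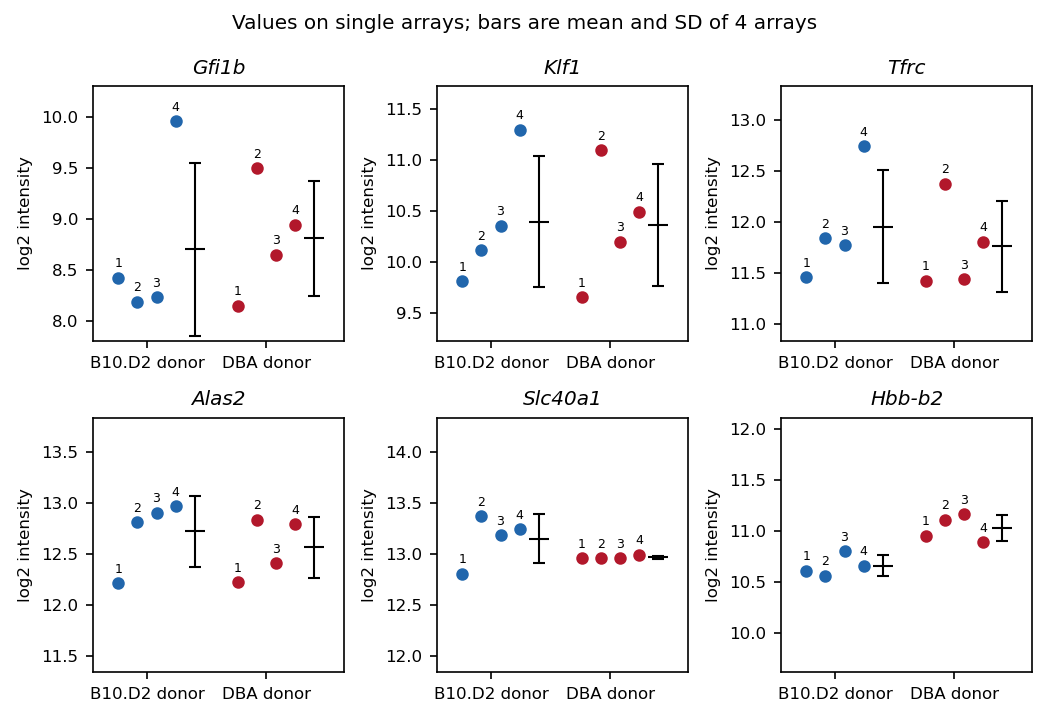
Log2 intensity of 6 genes on each array, with the replicate number beside the point and the group mean and SD as a bar; each panel spans the same number of log2 units but has its own range. Gfi1b, Klf1 and Tfrc have 1 high array per group. After normalization Slc40a1 is nearly flat over the DBA donor arrays, and the 2 groups of Hbb-b2 do not overlap.

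Membrane, skeleton and blood group genes followed closely. Of 12 listed genes, 11 had a probe and 9 were tested, with a median within-group SD of 0.54. B10.D2 replicate 4 was highest for 7 of the 9 and DBA replicate 2 for 8. Icam4, the Landsteiner-Wiener blood group adhesion protein, had the widest spread here (SD 0.64). It read 8.29, 8.40, 8.68 and 9.65 on the B10.D2 donor arrays and 8.15, 9.64, 8.38 and 8.62 on the DBA donor arrays. The 2 high arrays were 2.30-fold and 2.39-fold above the rest of their groups and nearly level with each other, and the donor difference was -0.05 (SE 0.35, limma adjusted p = 0.964). Kel, the Kell blood group endopeptidase, Rhag, of the Rh complex, and Ank1, the ankyrin that ties spectrin to the membrane, had SDs of 0.61, 0.59 and 0.56. Ermap, Tmod1, which caps actin filaments, and Add2, a subunit of adducin, had SDs of 0.53, 0.54 and 0.39. Add2 was dim, with its tested probe detected on 1 B10.D2 donor array and 3 DBA donor arrays and its other probe on 0. The 2 further tested probes of Ank1 and of Rhag gave the same high arrays.

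Slc4a1, the band 3 anion exchanger of the red cell membrane, departed from this order. It read 13.76, 14.11, 14.15 and 14.11 on the B10.D2 donor arrays and 13.55, 14.07, 13.61 and 13.93 on the DBA donor arrays. B10.D2 replicate 4 did not stand out, while both replicates 1 were the lowest of their groups. The donor difference was -0.24 (SE 0.14, 95% interval -0.55 to 0.06, limma adjusted p = 0.456), the most negative of the set, and the groups overlapped. Sptb, the beta chain of spectrin, was a dim probe that read 5.30, 5.25, 5.06 and 5.28 on the B10.D2 donor arrays and 5.10, 4.93, 5.16 and 5.39 on the DBA donor arrays. No array stood out in either group, with an SD of 0.16, and the difference was -0.08 (SE 0.11, limma adjusted p = 0.79).

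By the tested probe with the highest mean, all 8 tested genes of heme synthesis and its mitochondrial carriers were highest on B10.D2 replicate 4 and DBA replicate 2. Their median within-group SD was 0.38 and their median donor difference -0.02. Alas2, the enzyme that starts heme synthesis in red cell precursors, read 12.21, 12.82, 12.91 and 12.97 on the B10.D2 donor arrays and 12.23, 12.84, 12.41 and 12.79 on the DBA donor arrays. Replicate 1 was the lowest array of each group, well below the other 3 in the B10.D2 group and close to replicate 3 in the DBA group. The donor difference was -0.16 (SE 0.19, limma adjusted p = 0.744). Fech, which inserts iron into protoporphyrin as the last step, read 7.64, 8.31, 8.67 and 8.82, then 7.90, 8.97, 8.04 and 8.30. Its donor difference was -0.05 (SE 0.28, limma adjusted p = 0.951). The 2 further tested probes of Fech gave 0.13 and 0.06, and each departed from the array pattern in 1 group. The first was highest on DBA replicate 4 (5.59 against 5.53 on replicate 2). The second was highest on B10.D2 replicate 3 (7.86 against 7.63 on replicate 4).

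Alad, the enzyme of the step after Alas2, varied on the DBA side. It read 12.33, 12.35, 12.37 and 12.40 on the B10.D2 donor arrays, an SD of 0.03, and 12.21, 13.02, 12.49 and 12.53 on the DBA donor arrays, an SD of 0.34. DBA replicate 2 lay above the other 7 arrays, and the donor difference was 0.20 (SE 0.15, limma adjusted p = 0.571). Uros and Urod, the next enzymes along the path that are in the set, had SDs of 0.50 and 0.36 with donor differences of -0.11 and -0.09. Ppox, the enzyme before Fech, and Slc25a38, the mitochondrial glycine carrier, had SDs of 0.45 and 0.40 with donor differences of 0.05 and 0.04. Cpox was dim, between 4.72 and 5.57, with an SD of 0.33.

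**Figure D4:**
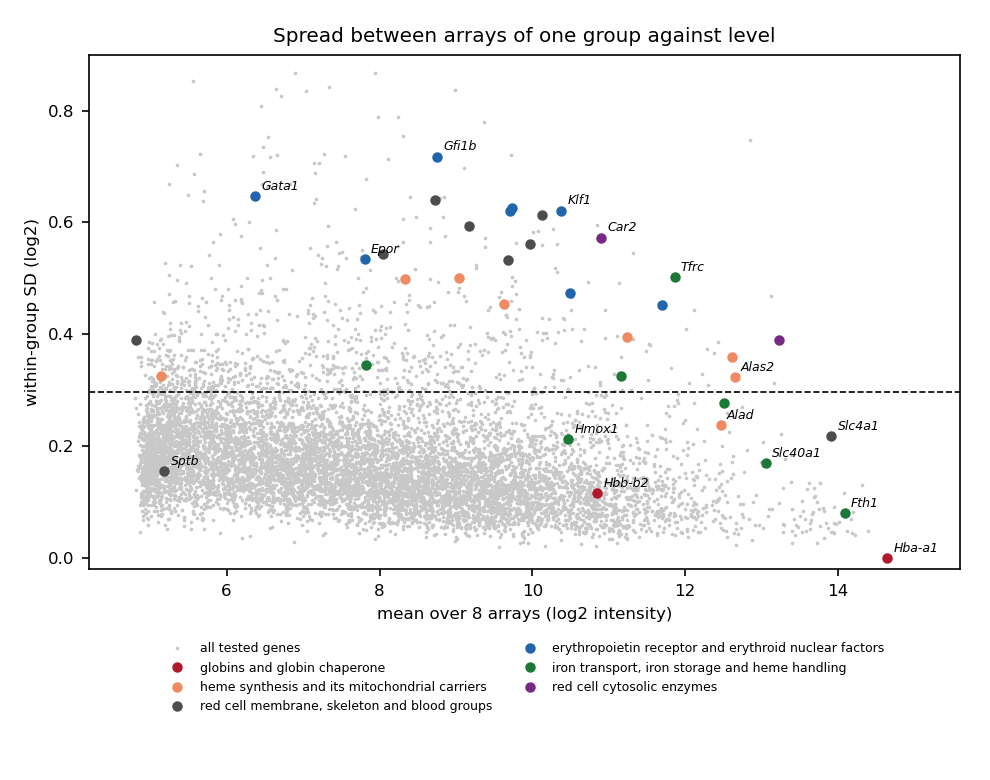
Within-group SD of each tested gene against its mean log2 intensity over 8 arrays, with all tested genes in grey, the genes of the set coloured by role and the 90th percentile of all genes as a dashed line. The axis ends at 0.9, which leaves out 6 other genes; 27 of 36 genes of the set lie above the line, and those with the smallest SDs are Hba-a1 and Fth1.

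The globins gave the largest difference of the set and the one gene that could not be read, with 2 of 4 listed globin genes tested. Hbb-b2, a beta chain of adult hemoglobin, read 10.61, 10.57, 10.80 and 10.66 on the B10.D2 donor arrays and 10.96, 11.12, 11.17 and 10.89 on the DBA donor arrays. Every DBA donor array was above every B10.D2 donor array, and the arrays that stood high for the other genes did not stand out. The donor difference was 0.37 (SE 0.10, 95% interval 0.16 to 0.58, higher in 4 of 4 arrays), with an unadjusted limma p of 0.00298 and an adjusted p of 0.178, so it did not pass. It stayed between 0.33 and 0.42 when any 1 array was left out. With arrays scaled by their median it was 0.21, where all tested genes had a median of -0.18. In that setting it no longer had an unadjusted limma p under 0.05. Before normalization the intensities of Hbb-b2 did overlap, at 1686.6 to 2034.4 in the B10.D2 group and 1717.3 to 2238.8 in the DBA group. Median raw intensity over all probes was higher in the B10.D2 group, at 126.4 to 142.1 against 113.2 to 124.8. Hbb-b1 and Hbb-b2 are related beta globin genes, and how far the probe binds RNA of both was not tested.

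Hba-a1, an alpha chain of hemoglobin, had the brightest probe of all on 8 of 8 arrays, with raw intensities of 24710.8 to 27461.3. The quantile step gives the brightest probe of each array 1 common value, here 14.64, so no donor difference could be measured for it. Scaled by the array median instead, the difference was 0.16, in a setting where the median over all tested genes was -0.18. The raw intensities overlapped, at 24900.5 to 27461.3 in the B10.D2 group and 24710.8 to 26003.4 in the DBA group. The quantile step also makes the SD of 0 a property of the normalization.

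Among genes of iron transport, iron storage and heme handling, 7 of 10 were tested, with a median within-group SD of 0.28, and these genes divided. Tfrc, the transferrin receptor through which precursors take up iron, read 11.46, 11.84, 11.78 and 12.75 on the B10.D2 donor arrays and 11.43, 12.38, 11.44 and 11.81 on the DBA donor arrays. It shared the high arrays of the red cell genes, and its donor difference was -0.19 (SE 0.28, limma adjusted p = 0.796). Slc11a2, the iron carrier DMT1, Hebp1, a heme-binding protein, and Blvrb, which reduces biliverdin, shared them too, with SDs of 0.35, 0.33 and 0.28. Hebp1 read 11.00, 11.13, 11.11 and 11.78 on the B10.D2 donor arrays and 10.85, 11.49, 10.89 and 10.99 on the DBA donor arrays. Its 2 high arrays lay above all the others, and its donor difference was -0.20 (SE 0.19, limma adjusted p = 0.672).

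Slc40a1, or ferroportin, the exporter that returns iron from macrophages to plasma, read 12.81, 13.37, 13.18 and 13.24 on the B10.D2 donor arrays and 12.96, 12.96, 12.96 and 12.99 on the DBA donor arrays. After normalization the DBA donor arrays were nearly level (SD 0.02) and the B10.D2 donor arrays lay on both sides of them (SD 0.24). Raw intensities on the DBA donor arrays were less level, at 6772.7, 7747.4, 6774.8 and 7955. The quantile step gives probes of equal rank 1 common value, so the small SD is partly a product of it. The donor difference was -0.18 (SE 0.12, limma adjusted p = 0.511). Hmox1, heme oxygenase, which opens the heme ring, read 10.30, 10.76, 10.35 and 10.43, then 10.16, 10.65, 10.56 and 10.52. Its difference was 0.01 (limma adjusted p = 0.979). With median scaling it became -0.18, where the median over all tested genes was also -0.18. Neither Slc40a1 nor Hmox1 was highest of its group on B10.D2 replicate 4. Fth1, the heavy chain of ferritin, read 14.03, 14.06, 14.07 and 14.17 on the B10.D2 donor arrays and 14.00, 14.23, 14.06 and 14.08 on the DBA donor arrays. The spread was small, with an SD of 0.08, and the difference was 0.01 (SE 0.09, limma adjusted p = 0.97). A second tested probe of Fth1 gave -0.03 and did not share the high arrays. It was lowest, at 13.78, on B10.D2 replicate 4.

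The cytosolic enzymes Car2 and Prdx2 were tested out of 4 listed. Car2, a carbonic anhydrase, read 10.15, 10.48, 10.93 and 11.43 on the B10.D2 donor arrays and 10.48, 11.88, 10.90 and 10.95 on the DBA donor arrays. The groups overlapped over most of their range, and the difference was 0.30 (SE 0.32, limma adjusted p = 0.706). It was 0.53 without B10.D2 replicate 4 and 0.03 without DBA replicate 2. Prdx2, an abundant red cell peroxiredoxin, read 12.91, 13.23, 13.30 and 13.79 on the B10.D2 donor arrays and 12.80, 13.75, 13.001 and 13.09 on the DBA donor arrays. It too was high on the same arrays, and it differed by -0.14 (SE 0.22, limma adjusted p = 0.809), with an SD of 0.39.

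Genes of the same pathways outside the set were read from the same limma fit. Of 29 other erythroid genes 21 were tested, 0 were called, and at an unadjusted p under 0.05 there were 3 lower and 0 higher genes, where 14.3% of all tested genes passed that level in either direction. Their median within-group SD was 0.35. Bcl11a, the repressor of fetal globin that B cells also need, read 9.50, 9.29, 9.28 and 9.41 on the B10.D2 donor arrays and 9.13, 9.10, 9.01 and 9.17 on the DBA donor arrays. Its groups did not overlap, and its difference of -0.27 had an adjusted p of 0.228. Hbb-bh1, an embryonic globin with a dim probe, differed by -0.53 (limma adjusted p = 0.311) and was low, not high, on B10.D2 replicate 4 and DBA replicate 2. Of 34 other genes of heme and iron 22 were tested, 0 were called, and at an unadjusted p under 0.05 there were 1 higher and 0 lower genes, against the same 14.3% of all. Their median SD was 0.21. Aco1, the iron-regulatory protein IRP1, differed by 0.32 (limma adjusted p = 0.235) without overlap, and Iscu, a scaffold for iron-sulfur clusters, by -0.14 (limma adjusted p = 0.452). B10.D2 replicate 4 and DBA replicate 2 were both highest in their groups for 11 of the 21 other erythroid genes. Both were highest for 8 of the 22 other heme and iron genes, where the share over all tested genes was 15.5%. A pair of genes with this pattern was named after their values were seen. Tfr2, which pairs with Epor in red cell precursors, read 6.04, 5.75, 5.83 and 7.66, then 6.04, 7.29, 6.50 and 6.68. Erfe, the hormone that precursors send to the liver to lower hepcidin, was detected on B10.D2 replicate 4 and DBA replicate 2 and on no other array.

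Markers of other spleen cells moved with the same arrays. List levels are means over the tested genes of a list. Dividing cells (6 of 12 listed genes tested) stood at 10.14 on B10.D2 replicate 4 against 9.47 to 9.67 on the other 3, and at 10.33 on DBA replicate 2 against 9.75 to 9.95, with 6 of 6 genes highest on both arrays. B cells (5 of 7) stood at 10.51 against 10.81 to 10.92, and at 10.23 against 10.40 to 10.71. T cells (6 of 7) stood at 8.98 against 9.45 to 9.52, and at 8.997 against 9.21 to 9.51. Lists of red pulp macrophages (6 of 8), megakaryocytes and platelets (7 of 9), neutrophils (8 of 8) and stroma and endothelium (7 of 7) had their lowest mean of each group on the same arrays. The markers of a spleen were thus detected in every group. Cela1, the 1 tested gene of 6 on a pancreas list, stood at 10.87 on B10.D2 replicate 4 against 8.32 to 8.67 in its group, and at 8.58 to 8.96 on the DBA donor arrays. Detected probes numbered 12601 to 13320 per array, and median raw intensity was 126.4 to 142.1 in the B10.D2 group and 113.2 to 124.8 in the DBA group. The part of cell makeup, tissue sampling or intensity in the spread of the red cell genes was not tested.

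**Figure D5:**
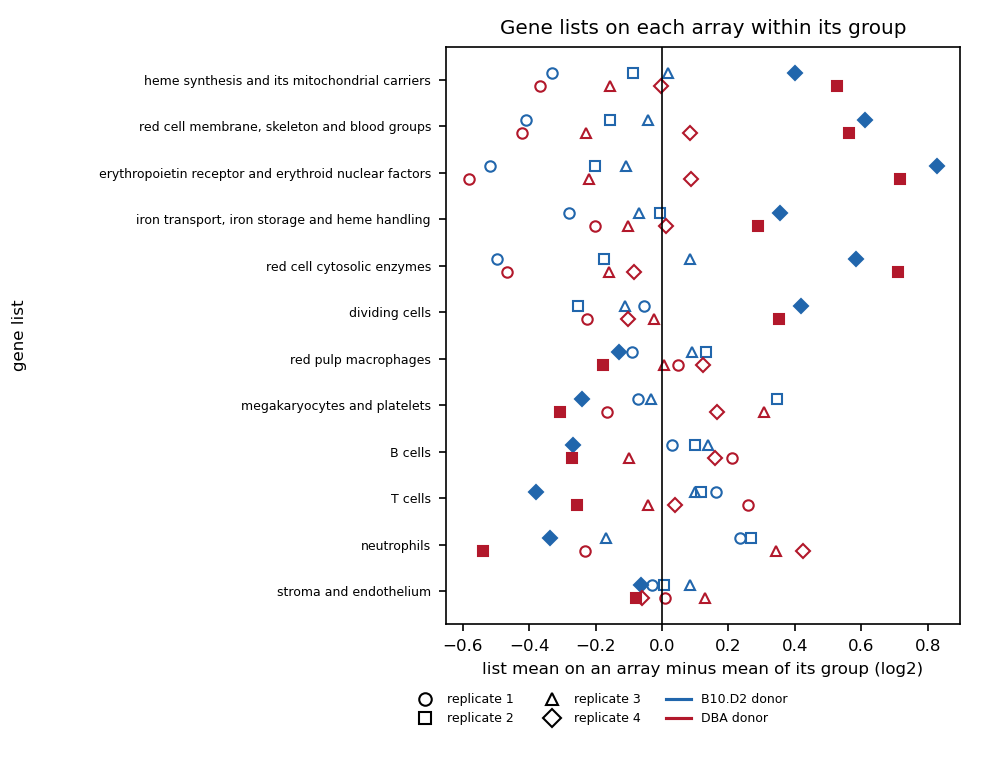
Mean log2 intensity of a gene list on an array minus the mean of its donor group, with 1 symbol per replicate. Filled symbols are B10.D2 replicate 4 and DBA replicate 2. These 2 arrays lie to the right for the role groups drawn and for dividing cells, and to the left for the lists of other spleen cells. The globins, whose mean was highest on replicate 3 of each group, are not drawn. The lists of other erythroid genes, other heme and iron genes and pancreas are not drawn either.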

How the data were processed

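Total RNA from 8 spleen samples was hybridised to Illumina MouseRef-8 v2.0 arrays, and samples were grouped by the donor in their titles. Per the file headers, the authors deposited a table of linear, non-normalized mean intensity over a probe's beads, with a detection p-value per probe that compares it with negative controls on the same array. A second deposited table of intensity values, made by steps not given in the sources used here, was tried as an alternative. GenomeStudio is named, without a version, in the submitters' processing notes.

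Intensities were background-corrected by normexp from the detection p-values (offset 16, which shrinks differences of dim probes), quantile-normalized and put on a log2 scale (neqc, limma 3.58.1, R 4.3.3). The 12950 of 25697 probes that were detected (p under 0.05) on 4 or more of the 8 arrays were tested. Differences were fitted with limma (lmFit, eBayes, two-sided, DBA donor minus B10.D2 donor, no block) with Benjamini-Hochberg adjustment over these probes and a threshold of 0.05. The gene's tested probe with the highest mean represents it. The platform annotation gives 1 symbol for 23978 probes, several for 0 and none for 1719.

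The genes, role groups, other lists and markers were chosen with earlier results of these data known. Named with their array values were the 2 genes of each role group with the smallest p, the 4 with the widest and the 2 with the narrowest spread, and a fixed list of core genes. Nothing in the labels states that replicates came from separate mice, so the p-values reflect spread between these samples only, and it may be technical. Precision is limited by how many arrays there were. The fit was also run on simulated data with independent noise for each probe. That differs from the spread shared across genes seen here, so the simulation does not speak for this set. Promoter windows came from RefSeq (GRCm38.p6). Alternatives covered background correction, offset, scaling, the second table, the filter on dim probes, the probe summary, the variance model, array weights, a replicate block and the loss of each array.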

Additional observations from a re-analysis of the deposited data

Results flagged for a closer look

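In 5 of the 42 groups of 4 arrays examined, 1 array stood far from the rest, its gap as a share of the group's range exceeding Dixon's 95% critical value. The groups were those of the median over the set and of the named genes. Hba-a1 was left out, since its values are equal by normalization. Chance flags about 1 in 20 independent groups, but some of the named genes were named for their wide spread and they share arrays. The count thus cannot be read against that share. B10.D2 replicate 4 was the high array in 3 of them. Gata1 stood at 7.42 there against 5.89 to 6.05 on the other B10.D2 donor arrays, with a gap of 0.898 of the range. Gfi1b stood at 9.96 against 8.19 to 8.42 (0.868 of the range), and Hebp1, the heme-binding protein, at 11.78 against 11.00 to 11.13 (0.842). Slc4a1 was low on B10.D2 replicate 1, at 13.76 against 14.11 to 14.15 on the other 3 arrays of the group (0.883). Slc40a1 stood at 12.99 on DBA replicate 4, where the other 3 DBA donor arrays were equal at 12.96 after the quantile step. This gap is thus small in size although it spans the whole range.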

How the results depend on the processing

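The count of 0 called genes of the set held in all 20 alternative settings of the limma fit, with 1 gene of the set (Hbb-b2) at an unadjusted p under 0.05 in the main setting. Over all probes, 9 were called (8 higher, 1 lower). That count was 625 with median scaling (27 higher, 598 lower, with the median of all genes at -0.18 in place of -0.02), 38 with array weights, and 0 with no filter on dim probes (2759 at an unadjusted p under 0.05), with a stricter filter (1587) or with an ordinary statistic (1789). It ranged from 0 to 9 without 1 array, being 0 without B10.D2 replicate 2 (1278), DBA replicate 3 (1230) or DBA replicate 4 (1997), 2 without B10.D2 replicate 3 or DBA replicate 1, and 4 without DBA replicate 2. The median difference of the set ranged from -0.26 to 0.09 without 1 array. Its median within-group SD of 0.45 was 0.38 with no background correction, 0.50 with median scaling, 0.39 with no filter, 0.47 with the stricter filter and 0.24 without both high arrays. Genes highest on B10.D2 replicate 4 numbered 28 to 32, and on DBA replicate 2 30 to 34, over settings with 33 to 42 tested genes. Signs turned for Fech (0.043) and Fth1 (-0.0081) with probes averaged, for Gata1 (-0.11), Gfi1b (-0.11) and Hmox1 (-0.18) with median scaling, and for Hmox1 (-0.052) and Klf1 (0.017) with array weights. Without both high arrays they turned for Fth1 (-0.0059), Hmox1 (-0.056), Klf1 (0.022) and Sptb (0.012). Without 1 array the sign turned for 12 of 21 named genes, Epor (-0.35 to 0.17), Fech (-0.29 to 0.10), Fth1 (-0.035 to 0.041), Gata1 (-0.18 to 0.41), Gfi1b (-0.12 to 0.53), Hmox1 (-0.05 to 0.12), Icam4 (-0.37 to 0.25), Klf1 (-0.28 to 0.27), Nfe2 (-0.33 to 0.060), Prdx2 (-0.34 to 0.018), Tal1 (-0.45 to 0.10), Tfrc (-0.40 to 0.071). Without 1 array Sptb ranged from -0.16 to -0.0079. The cause was not tested. The labels do not say whether replicate numbers pair the samples. Deviations from the group means on same-numbered arrays correlated at 0.34, -0.35, 0.05 and 0.04, with 1 of 4 arrays best with its own number. B10.D2 replicate 4 and DBA replicate 2 correlated at 0.56. Such correlations cannot show whether same-numbered samples shared a batch. With a replicate block 7 probes and 0 genes of the set were called, with a smallest adjusted p in the set of 0.268. The 4 arrays per donor and the width of the intervals limit what can be seen of donor differences in genes with this spread.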
